A study of Mus musculus with 20 samples.

Results

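Oligodendrocytes wrap the axons of the brain in myelin, and 42 genes that are read out along their lineage, from the dividing precursor to the myelinating cell, were followed here in the sensory-motor cortex of adult mice. The genes were taken by symbol from a list of precursor, newly formed and myelinating oligodendrocyte genes, and all 42 were among the 48795 genes of the count table. Of these, 41 had enough counts to be tested, as had 17313 genes in all, and Ninj2, a cell surface protein, did not, with 2 to 22 counts in a library. Bulk RNA was sequenced from CD-1 offspring of dams injected on gestation day 9, either with lipopolysaccharide (LPS) at 0.008 mg/kg, which gives the maternal inflammatory response (MIR) offspring, or with saline, which gives the control offspring. Rapamycin, which blocks the mTOR kinase, or its DMSO vehicle was injected into the offspring 2 hours before the cortex was taken. The 4 groups were MIR rapamycin, control rapamycin, MIR vehicle and control vehicle, with 5 libraries each. The CD-1 mice carried no engineered allele, MIR and control offspring differed by design in what the dam received, and every animal had an injection of rapamycin or vehicle. The study names fewer litters for sequencing than there are libraries in a group, so some libraries of a group come from litter mates, while p-values treat the libraries as independent. Which library came from which litter, and its sex and exact age, were not found in the labels or methods.

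Oligodendrocyte precursors divide and carry the growth factor receptor Pdgfra. They leave the cycle under transcription factors such as Olig2 and Sox10, pass through a short newly formed stage marked by Enpp6 and Bcas1, and then switch on Myrf and the genes of the myelin sheath. Myelin is built from a few very abundant proteins, such as Mbp, and from lipids such as galactosylceramide. Sheath-forming cells also make gap junctions, adhesion proteins and enzymes that feed the axon or recycle metabolites. The mTOR kinase is known as a regulator of this lineage.

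Libraries held 17.8 to 24.5 M counts, and the control vehicle libraries stood apart by genes of other brain regions, libraries 1, 2 and 3 the most. A score was computed per library as the mean log2 counts per M (CPM) of a marker list relative to the median library. Control vehicle 1 scored -5.00 for cortical excitatory neurons and 5.11 for striatum, control vehicle 2 scored -1.13 for cortical excitatory neurons and 5.55 for cerebellum, and control vehicle 3 scored 5.48 for choroid plexus. The summed level of the 9 cortical neuron markers was 1856 to 2490.4 CPM in the libraries of the other 3 groups, against 97.0 CPM in control vehicle 1. The 12 striatal markers summed to 195 to 461 CPM in the other 3 groups, against 4639 CPM in control vehicle 1, and the 10 cerebellar markers to 111 to 209 CPM, against 3335 CPM in control vehicle 2. By score, all 5 control vehicle libraries were shifted for cerebellum, libraries 4 and 5 included, with -0.52 to 0.06 in the other 3 groups, against 0.30 to 5.55. By summed level they were not all raised. The lowest cerebellar sum in control vehicle libraries was 159 CPM and the median 172.5 CPM, both within the range of the other 3 groups. For the 10 choroid plexus markers the sum was 3.31 to 7.24 CPM in control rapamycin libraries, against 18.2 to 1310.3 CPM in control vehicle libraries, with no overlap. Thalamus and hypothalamus markers scored -0.01 to 1.39 in control vehicle libraries, against -0.42 to 0.16 in the other 3 groups, with an overlap. Outside control vehicle, control rapamycin 4 scored 1.62 and MIR vehicle 4 scored 0.97 for striatum. Control rapamycin 1 differed from the rest of its group over all genes, with a chi-square per degree of freedom of 66.9 to 75.2 in its pairs, against 10.6 to 24.1 in the pairs of the other 4.

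Other cell types moved less, but not evenly between groups. Astrocyte markers scored -0.13 to 0.03 in control rapamycin libraries, against 0.02 to 0.43 in control vehicle libraries, and pericyte and fibroblast markers scored -0.40 to 0.14, against -0.20 to 0.78. Endothelial markers did not overlap between MIR and control offspring, with scores of 0.11 to 0.47 in MIR vehicle libraries, against -0.28 to 0.02 in control vehicle libraries, and of -0.09 to 0.41 in MIR rapamycin libraries, against -0.45 to -0.18 in control rapamycin libraries. Microglia markers scored -0.52 to 0.71 over all libraries. Dividing-cell markers scored 0.16 to 2.70 in MIR rapamycin libraries, against -1.14 to 0.28 in control rapamycin libraries, and -0.61 to 2.43 in MIR vehicle libraries, against -0.97 to -0.30 in control vehicle libraries. The part of these markers in the results was not tested. Because control vehicle libraries enter most of the comparisons, the results that rest on them are also given with control vehicle 1 left out, and the main ones with 1 and 2 or 1 to 3 left out.

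**Figure D1:**
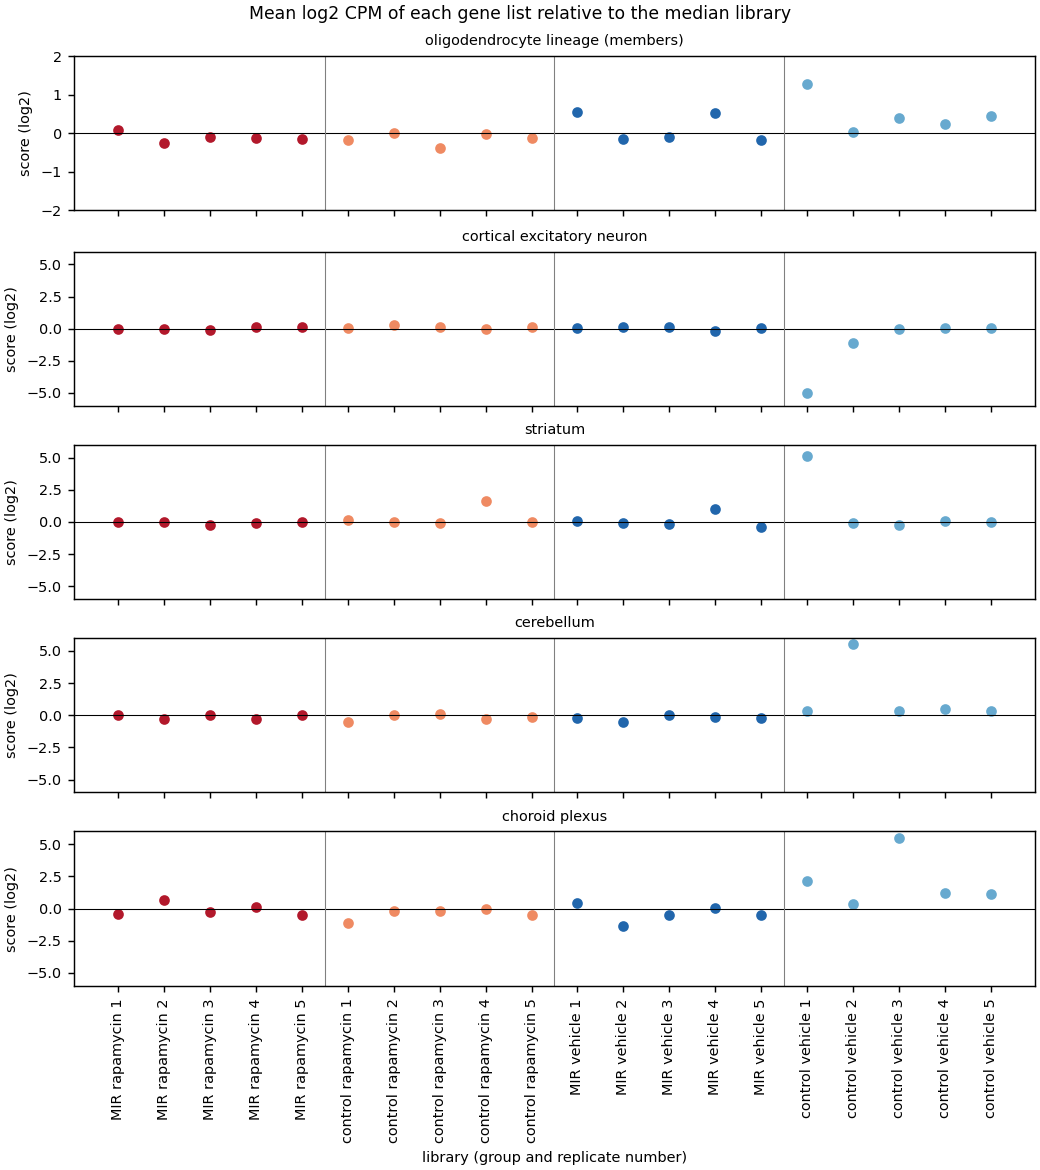
Score of the oligodendrocyte lineage genes and of 4 marker lists (y axis: mean log2 CPM relative to the median library; the top panel has a narrower scale than the others) in each of the 20 libraries (x axis, in 4 groups). Control vehicle 1 is at 1.29 for the lineage genes, -5.00 for cortical excitatory neurons and 5.11 for striatum, and control vehicle 2 and 3 stand apart for cerebellum (5.55) and choroid plexus (5.48).

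Precursor, newly formed and myelinating genes were all expressed, as the label of the gene set says. Among markers listed for Schwann cells, Pmp2 and Foxd3 had 0 counts in all 20 libraries. Others of that list were present, with Drp2 at 55.0 to 125 CPM and Cdh19 at 8.92 to 27.3 CPM, so the list as a whole was not absent. Divided by exon length, so that genes can be compared, the mean level over all libraries was 240.1 CPM per kb for Mbp, the basic protein that compacts the sheath, and 94.7 CPM per kb for Mobp, a separate protein of myelin. Car2 (a carbonic anhydrase, 66.6), Qdpr (which recycles tetrahydrobiopterin, 62.9), Apod (a lipid carrier, 52.9), Cnp (the cyclic nucleotide phosphodiesterase of myelin, 51.2) and Mal (a raft protein, 51.0) followed, all as CPM per kb. The precursor genes and lineage factors ranged widely on this scale, with 29.6 CPM per kb for the factor Olig1, 6.06 for Pdgfra and 1.43 for the homeobox factor Nkx2-2, and some myelinating genes, such as Opalin at 2.27, lay below Pdgfra. Enpp6, a choline-specific phosphodiesterase, was near the bottom at 0.719 CPM per kb. Together the 42 genes took 0.377% to 1.16% of all counts of a library.

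Control vehicle 1 was the highest of the 20 libraries for 35 of the 42 genes. Its level was 2.10 times the mean of control vehicle 2 to 5 at the median of the 41 tested genes, with a range of 0.452 to 6.62 times. Control vehicle 2 was the highest library for Myt1 and St18, related zinc finger factors, and the lowest for 8 genes. In the MIR vehicle group, libraries 1 and 4 were high, with a score over the lineage genes of 0.55 and 0.53, against -0.17 to -0.11 in libraries 2, 3 and 5. Many of the genes were thus high in the same libraries, while control vehicle 2 went both ways. No correlation between genes was computed, and differences between animals and in tissue content cannot be told apart. The median standard deviation (SD) of log2 CPM within a group was 0.45 for the 41 genes and 0.26 over all genes tested. By group, this SD was 0.21 in MIR rapamycin, 0.31 in control rapamycin, 0.46 in MIR vehicle and 0.62 in control vehicle libraries, the last at 0.39 without library 1.

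**Figure D2:**
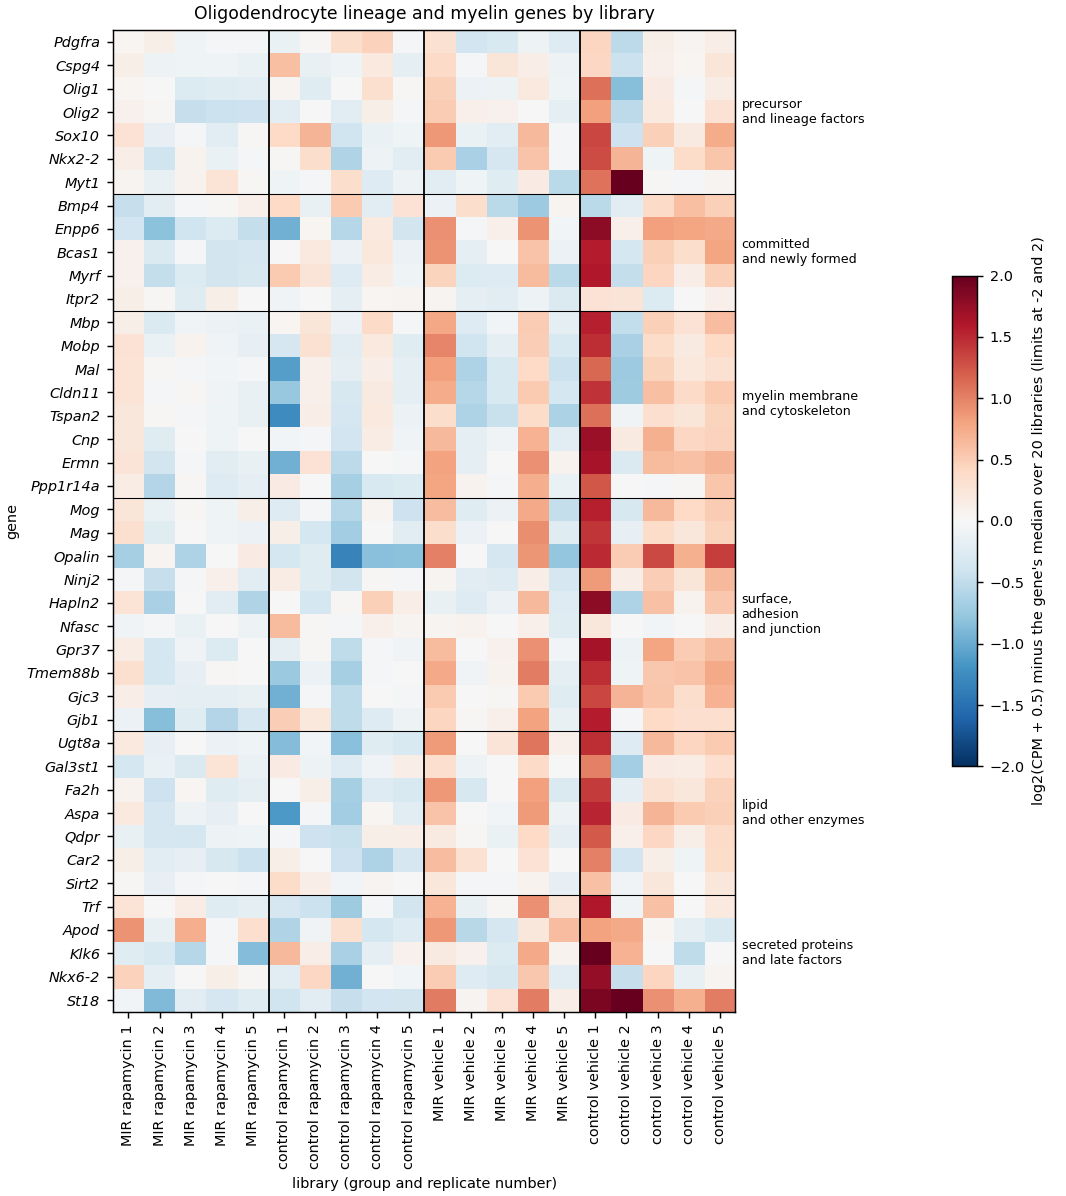
Level of each of the 42 genes (rows, in 6 groups) in each of the 20 libraries (columns), as log2(CPM + 0.5) minus the median of the gene over the libraries, with colours from -2 (blue) to 2 (red). Control vehicle 1 is red in most rows, MIR vehicle 1 and 4 are red among MIR vehicle libraries, and the 10 rapamycin libraries at the left are pale or blue for most myelin genes.

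All calls among the lineage genes by the main test came from rapamycin against vehicle in control offspring. Of the 41 tested genes, 13 fell and 0 rose after rapamycin (edgeR's quasi-likelihood test over all genes, Benjamini-Hochberg adjusted p under 0.05 and absolute log2 fold change over 0.5), where 3.71% of all genes tested fell and 5.23% were called in either direction. The 13 genes were Opalin, Gjc3, Tmem88b, Gpr37 and Mog among surface and junction proteins, Ugt8a, Aspa and Qdpr among enzymes, Cnp and Ermn among proteins of the sheath and its cytoskeleton, Enpp6 of newly formed cells, and Trf and St18. At an unadjusted p under 0.05, 24 of the 41 were lower and 0 higher, against 27.3% of all genes in either direction, and the log2 fold change was below 0 for 38 of 41. The median log2 fold change was -0.67 over the 41 genes and -0.03 over all genes tested. In 5 genes (Opalin, St18, Gjc3, Aspa and Cnp) every control rapamycin library lay below every control vehicle library, as did 2.8% of all genes tested. In bulk RNA, fewer oligodendrocytes, less RNA per cell and a different mix of regions in the control vehicle libraries cannot be told apart. Enpp6, Cnp, Ermn, Mog and Qdpr overlap a gene annotated on the opposite strand (GENCODE M21, GRCm38) and Trf overlaps one on its own strand. The strand setting of the counting was not found in the labels or methods, so reads of these neighbours cannot be told apart from theirs.

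The size of this difference depended on which control vehicle libraries were kept. Without control vehicle 1, 6 of the 41 genes were called (Opalin, St18, Gjc3, Enpp6, Ugt8a and Aspa), all lower, where 4.88% of all genes were called, and the median log2 fold change was -0.33. Without control vehicle 1 and 2 there were 8 (the same 6 with Gpr37 and Tmem88b), where 1.56% of all genes were called, with a median of -0.42. Without control vehicle 1, 2 and 3, which leaves 2 libraries in the group, 1 gene was called (St18), against 0.2% of all genes, and the median was -0.42. Leaving out a single library gave 6 to 17 called genes, with 6 without control rapamycin 3, 7 without control rapamycin 1, 8 without control rapamycin 5 and 17 without control vehicle 2. The 7 and the 17 include Ninj2, which passed the count filter in those fits but not in the fit with all libraries. With all libraries of both control groups but no MIR libraries in the fit, 1 gene was called (Opalin), while the median log2 fold change stayed at -0.67 and the adjusted p were higher. The part of the striatal, cerebellar, thalamic and hypothalamic, and choroid plexus signal in these values was not tested beyond these exclusions.

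**Figure D3:**
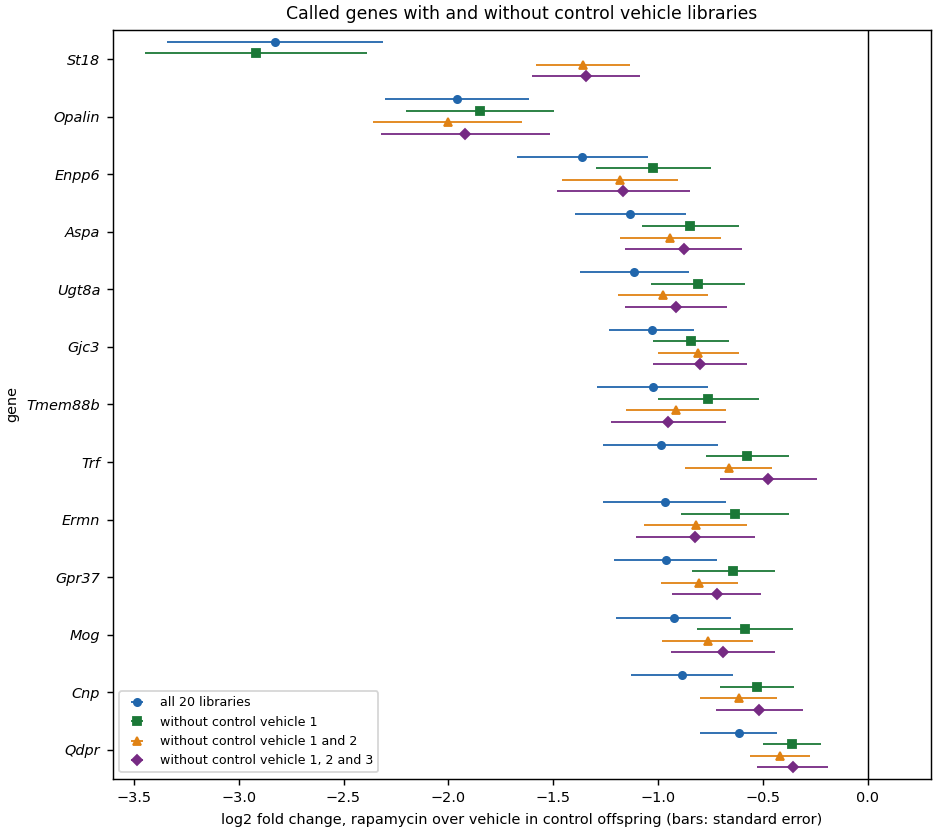
Log2 fold change of rapamycin over vehicle in control offspring (x axis, bars are standard errors) for the 13 called genes, in the fit with all 20 libraries and in the fits without control vehicle 1, without 1 and 2, and without 1, 2 and 3. All 52 values lie below 0, and Opalin is at -1.96 with all libraries and at -1.85 without control vehicle 1, while St18 is at -2.83 with all libraries and at -1.36 without control vehicle 1 and 2.

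Among surface and junction proteins, 5 of 9 tested genes fell in control offspring, with a median log2 fold change of -0.93. Opalin (ENSMUSG00000050121, chr19:41061710-41077113), a transmembrane protein of the oligodendrocyte and its sheath, had 4.06, 4.42, 1.80, 2.73 and 2.78 CPM in control rapamycin libraries 1 to 5, against 15.9, 7.73, 13.9, 9.02 and 14.7 CPM in control vehicle libraries. The groups did not overlap, and the log2 fold change was -1.96 ± 0.34 (SE, n = 5 each, quasi-likelihood adjusted p = 0.00603), with -1.85 when control vehicle 1 was left out and -1.92 when 1, 2 and 3 were (adjusted p = 0.0110 and 0.0574). In MIR offspring Opalin was at 3.17, 5.49, 3.27, 5.27 and 6.003 CPM after rapamycin, against 11.2, 5.32, 4.08, 10.2 and 2.89 CPM after vehicle, which overlap (-0.53 ± 0.34 log2, quasi-likelihood adjusted p = 1.000). Gjc3 (ENSMUSG00000056966, chr5:137953461-137963098), a connexin of oligodendrocytes, had 16.8, 32.8, 23.1, 33.5 and 32.3 CPM in control rapamycin libraries, against 84.4, 53.7, 48.8, 42.3 and 54.2 CPM in control vehicle libraries. These did not overlap either, at -1.03 ± 0.20 log2 (quasi-likelihood adjusted p = 0.00907). For Gjc3 the MIR libraries held 36.5, 29.6, 29.3, 29.2 and 29.9 CPM after rapamycin, against 47.9, 32.9, 33.5, 47.8 and 28.0 CPM after vehicle.

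Tmem88b, a membrane protein abundant in these cells, had 26.9, 41.9, 28.4, 44.9 and 45.1 CPM in control rapamycin libraries, against 127, 42.9, 66.5, 67.5 and 77.1 CPM in control vehicle libraries (-1.03 ± 0.27 log2, quasi-likelihood adjusted p = 0.0285). Tmem88b in MIR offspring was at 56.6, 35.4, 40.5, 46.0 and 45.9 CPM after rapamycin, against 77.6, 43.1, 47.9, 93.4 and 39.5 CPM after vehicle. For this gene only control vehicle 2 lay within the range of the control rapamycin libraries. Gpr37, a receptor coupled to G proteins, was at 43.8, 50.4, 34.6, 48.3 and 47.1 CPM in control rapamycin and 158, 46.0, 86.3, 70.6 and 76.7 CPM in control vehicle libraries (-0.96 ± 0.25 log2, quasi-likelihood adjusted p = 0.0272). Gpr37 in MIR offspring had 55.2, 38.9, 47.2, 41.0 and 49.6 CPM after rapamycin and 77.0, 49.4, 52.6, 93.6 and 47.5 CPM after vehicle, with an overlap. Again control vehicle 2 was the only vehicle library within the control rapamycin range, as for the next gene. Mog, an immunoglobulin-fold protein on the outer face of myelin, had 20.1, 23.6, 16.0, 24.97 and 17.99 CPM in control rapamycin libraries, against 71.8, 19.1, 38.0, 31.8 and 34.2 CPM in control vehicle libraries (-0.93 ± 0.27 log2, quasi-likelihood adjusted p = 0.0454). Mog in MIR offspring was at 28.6, 21.8, 24.5, 22.6 and 26.1 CPM after rapamycin and 37.0, 20.3, 22.2, 40.9 and 17.1 CPM after vehicle. Tmem88b and Gpr37 missed the threshold without control vehicle 1 and without control rapamycin 1 or 3, and Mog missed it in 13 of the 20 fits that left out a library.

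Of the surface proteins that were not called, Mag, the adhesion protein that faces the axon, had 106, 77.0, 60.4, 98.8 and 84.6 CPM in control rapamycin and 266, 87.6, 127, 114 and 133 CPM in control vehicle libraries (-0.77 ± 0.25 log2, quasi-likelihood adjusted p = 0.0637). Mag in MIR offspring had 123, 83.2, 99.1, 92.6 and 90.9 CPM after rapamycin and 125, 91.0, 97.7, 188 and 83.1 CPM after vehicle, and the groups overlapped in both kinds of offspring. Nfasc, an adhesion protein of the node and paranode that neurons also make, gave the smallest p among the genes above 0 in control offspring. Its level was 503, 329, 314, 349.6 and 338 CPM in control rapamycin, against 379.7, 325, 311, 322 and 356 CPM in control vehicle libraries (0.11 ± 0.11 log2, quasi-likelihood adjusted p = 0.520), and without control rapamycin 1, the highest library, the log2 fold change was -0.02. Nfasc had 311, 319, 295, 323 and 303 CPM in MIR rapamycin and 336, 342, 322, 348 and 273 CPM in MIR vehicle libraries. The log2 fold changes of Hapln2, a link protein of nodes, and of Gjb1, another connexin, were -0.63 and -0.67 in control offspring and neither was called.

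Of the 7 enzymes, 3 fell in control offspring, with a group median of -0.62 on the log2 scale. Ugt8a (ENSMUSG00000032854, chr3:125865271-125938619), the transferase that makes galactosylceramide, had 17.3, 30.7, 17.7, 27.0 and 25.9 CPM in control rapamycin libraries, against 90.2, 26.8, 50.5, 43.3 and 46.1 CPM in control vehicle libraries. Control vehicle 2 alone lay within the rapamycin range, and the log2 fold change was -1.11 ± 0.26 (quasi-likelihood adjusted p = 0.0199), or -0.81 without control vehicle 1 (adjusted p = 0.0356). In MIR offspring Ugt8a had 36.8, 28.6, 31.7, 29.6 and 30.2 CPM after rapamycin, against 58.4, 32.3, 38.3, 67.8 and 34.6 CPM after vehicle (-0.56 ± 0.26 log2, unadjusted p = 0.0424, quasi-likelihood adjusted p = 0.987). Aspa (ENSMUSG00000020774, chr11:73304992-73329596), which splits N-acetylaspartate into acetate and aspartate, was at 4.69, 10.8, 6.64, 11.3 and 9.44 CPM in control rapamycin libraries, against 32.4, 12.4, 17.9, 16.1 and 15.5 CPM in control vehicle libraries, without overlap (-1.13 ± 0.26 log2, quasi-likelihood adjusted p = 0.0195). Aspa in MIR offspring had 12.7, 8.58, 10.2, 9.79 and 10.9 CPM after rapamycin and 16.7, 11.1, 10.6, 20.2 and 10.2 CPM after vehicle. Its value without control vehicle 1 was -0.85 (quasi-likelihood adjusted p = 0.0349), so Ugt8a and Aspa were called in both fits.

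Qdpr had 104, 79.1, 77.1, 114 and 116 CPM in control rapamycin libraries, against 246, 113, 141, 114 and 137 CPM in control vehicle libraries (-0.62 ± 0.18 log2, quasi-likelihood adjusted p = 0.0463), and missed the threshold in 16 of the 20 fits that left out a library. Qdpr in MIR offspring was at 94.5, 82.7, 81.9, 98.1 and 99.2 CPM after rapamycin and 119, 107, 95.5, 139 and 91.4 CPM after vehicle. The other 4 enzymes were not called: Fa2h, which hydroxylates the fatty acids of myelin lipids, was at -0.76 ± 0.27 log2, Car2 at -0.51 ± 0.20, Gal3st1, which makes sulfatide, at -0.33 ± 0.22 and the deacetylase Sirt2 at -0.10 ± 0.11.

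In the group of sheath and cytoskeleton proteins, 2 of 8 genes fell in control offspring (median log2 fold change -0.67), and the most abundant ones were not called. Mbp had 1759, 2028, 1579, 2243 and 1672 CPM in control rapamycin libraries, against 5063, 1215, 2377, 2102 and 2625 CPM in control vehicle libraries (-0.53 ± 0.27 log2, quasi-likelihood adjusted p = 0.205). Control vehicle 1 was the highest and control vehicle 2 the lowest of all 20 libraries for Mbp, and without control vehicle 1 its log2 fold change was -0.16. In MIR offspring Mbp was at 1857, 1400.4, 1629, 1584 and 1564 CPM after rapamycin and 2919, 1438, 1651, 2449.5 and 1510.0 CPM after vehicle. Mobp had 449, 701, 486, 652 and 479 CPM in control rapamycin and 1578, 361, 729, 643 and 743 CPM in control vehicle libraries (-0.55 ± 0.30 log2, quasi-likelihood adjusted p = 0.244). Mobp in MIR offspring was at 695, 515, 594, 540.2 and 505 CPM after rapamycin and 1116, 431, 500.3, 796 and 457 CPM after vehicle, again with overlap.

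Cnp (ENSMUSG00000006782, chr11:100574904-100591729) had 147, 149, 117, 170.0 and 146 CPM in control rapamycin libraries, against 507, 174, 251, 204 and 212 CPM in control vehicle libraries, without overlap (-0.89 ± 0.24 log2, quasi-likelihood adjusted p = 0.0345). Cnp in MIR offspring was at 178, 129, 152, 144 and 154 CPM after rapamycin and 239, 135, 145, 247 and 130.4 CPM after vehicle. The Cnp call was lost in 5 of the 20 fits that left out a library, at -0.53 log2 without control vehicle 1 (quasi-likelihood adjusted p = 0.0700) and at -0.89 to -0.82 log2 without control rapamycin 1, 2, 3 or 5. Ermn, an actin-binding protein of the outer sheath, had 28.1, 67.6, 38.3, 55.0 and 54.2 CPM in control rapamycin libraries, against 173, 45.1, 85.3, 82.9 and 88.9 CPM in control vehicle libraries (-0.97 ± 0.29 log2, quasi-likelihood adjusted p = 0.0480). Ermn in MIR offspring was at 66.2, 42.6, 53.5, 47.4 and 49.5 CPM after rapamycin and 96.5, 48.7, 55.3, 104 and 58.0 CPM after vehicle. Ermn lost its call in 16 of the 20 fits that left out a library. Mal, Cldn11 (the tight junction claudin of myelin), Tspan2 (a tetraspanin) and Ppp1r14a (an inhibitor of a myosin phosphatase) were at -0.58, -0.76, -0.66 and -0.67 log2 and not called.

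The newly formed stage held 1 called gene of 5. Enpp6 (ENSMUSG00000038173, chr8:46986887-47096762) had 1.66, 3.82, 2.33, 4.33 and 2.78 CPM in control rapamycin libraries, against 14.1, 4.02, 6.91, 6.77 and 6.63 CPM in control vehicle libraries. Control vehicle 2 alone reached into the rapamycin range, and the log2 fold change was -1.36 ± 0.31 (quasi-likelihood adjusted p = 0.0183), or -1.02 without control vehicle 1 (adjusted p = 0.0334). In MIR offspring, Enpp6 had 2.73, 1.89, 2.69, 2.98 and 2.53 CPM after rapamycin, against 7.46, 3.61, 4.04, 7.31 and 3.56 CPM after vehicle, without overlap (-1.01 ± 0.32 log2, unadjusted p = 0.00443, quasi-likelihood adjusted p = 0.541). All 5 MIR rapamycin libraries thus lay below all 5 MIR vehicle libraries, although the difference did not pass the adjustment over all genes.

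Bcas1, another gene of newly formed cells that stays on in myelin, had 145, 165, 133, 167 and 134 CPM in control rapamycin and 429, 113, 201, 185 and 251 CPM in control vehicle libraries (-0.66 ± 0.26 log2, quasi-likelihood adjusted p = 0.108). Bcas1 in MIR offspring was at 153, 118, 141, 112 and 115 CPM after rapamycin and 271, 128, 144, 216 and 133 CPM after vehicle. Only control vehicle 2 was below any control rapamycin library for Bcas1. Myrf, the membrane-bound factor that switches on myelin genes, had 77.1, 64.1, 44.7, 59.1 and 50.04 CPM in control rapamycin and 164, 38.0, 71.7, 58.3 and 74.3 CPM in control vehicle libraries (-0.46 ± 0.29 log2, quasi-likelihood adjusted p = 0.322). Myrf in MIR offspring was at 56.9, 38.1, 44.1, 41.2 and 42.7 CPM after rapamycin and 73.2, 44.0, 44.7, 82.9 and 36.4 CPM after vehicle, and neither Bcas1 nor Myrf was called. The inositol trisphosphate receptor Itpr2 had 33.2, 31.3, 25.9, 33.5 and 30.4 CPM in MIR rapamycin, against 31.8, 26.7, 26.2, 28.6 and 25.1 CPM in MIR vehicle libraries, the smallest p among the genes above 0 in MIR offspring (0.16 ± 0.10 log2, quasi-likelihood adjusted p = 1.000). Itpr2 in control offspring was at 29.3, 30.9, 26.9, 31.6 and 32.1 CPM after rapamycin and 37.6, 36.7, 25.3, 30.6 and 32.9 CPM after vehicle. The secreted factor Bmp4 was at -0.00 ± 0.29 log2 in control offspring.

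Of the secreted proteins and late factors, Trf and St18 were called among 5. Trf, the iron carrier transferrin, had 17.3, 16.3, 13.2, 21.6 and 16.9 CPM in control rapamycin libraries, against 67.5, 20.9, 33.5, 22.1 and 25.1 CPM in control vehicle libraries (-0.99 ± 0.27 log2, quasi-likelihood adjusted p = 0.0359). Trf in MIR offspring was at 26.7, 22.0, 24.5, 18.5 and 19.4 CPM after rapamycin and 36.0, 19.8, 22.5, 42.02 and 26.4 CPM after vehicle, and the control call was lost in 5 of the 20 fits that left out a library, among them that without control vehicle 1. St18, whose groups did not overlap in either kind of offspring, showed the largest log2 fold change of the 41 genes in control offspring. St18 (ENSMUSG00000033740, chr1:6487231-6860940) was at 4.00, 4.61, 3.82, 4.04 and 4.13 CPM in control rapamycin libraries, against 21.5, 93.2, 10.7, 9.29 and 11.6 CPM in control vehicle libraries (-2.83 ± 0.51 log2, quasi-likelihood adjusted p = 0.00718). Control vehicle 2, the library with cerebellar markers, was far above the others, and without control vehicle 1 and 2 the value was -1.36 (adjusted p = 0.00671). In MIR offspring St18 had 5.22, 2.72, 4.61, 4.20 and 4.53 CPM after rapamycin, against 11.7, 5.71, 6.80, 11.6 and 6.02 CPM after vehicle, without overlap (-0.97 ± 0.50 log2, quasi-likelihood adjusted p = 1.000). Klk6, a secreted protease, had 2.34, 1.49, 0.659, 1.08 and 1.43 CPM in control rapamycin and 9.67, 2.44, 1.33, 0.778 and 1.29 CPM in control vehicle libraries (-1.16 ± 0.53 log2, quasi-likelihood adjusted p = 0.164). Klk6 in MIR offspring was at 1.02, 0.969, 0.721, 1.26 and 0.490 CPM after rapamycin and 1.56, 1.41, 0.997, 2.55 and 1.40 CPM after vehicle, and control vehicle 1 was the only library over 3 CPM. Apod and the homeobox factor Nkx6-2 were at -0.45 ± 0.28 and -0.69 ± 0.35 log2 in control offspring and not called.

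No precursor gene or lineage factor was called in control offspring (0 of 7 by edgeR's quasi-likelihood test, where 3.71% of all genes fell). At an unadjusted p under 0.05 there were 2 of 7, against 27.3% of all genes in either direction. With 7 genes these counts do not set the stage apart from all genes tested. DESeq2 called Nkx2-2 and Myt1 lower in this comparison, as did edgeR without control vehicle 3. Myt1 was also called by edgeR without control vehicle 4 or 5. Pdgfra had 54.3, 60.5, 75.9, 82.1 and 58.4 CPM in control rapamycin libraries, against 80.0, 41.4, 64.6, 61.9 and 64.9 CPM in control vehicle libraries (0.08 ± 0.15 log2, quasi-likelihood adjusted p = 0.760). Pdgfra in MIR offspring was at 61.4, 64.5, 55.8, 57.9 and 58.4 CPM after rapamycin and 73.4, 45.7, 48.3, 55.2 and 49.9 CPM after vehicle. The Pdgfra ranges overlapped in both kinds of offspring, with control vehicle 2 as the lowest library of all. Cspg4 was at 0.01 ± 0.16 log2 in control and -0.19 ± 0.16 log2 in MIR offspring. Olig2, the basic helix-loop-helix factor of the lineage, had 19.3, 22.2, 19.3, 24.3 and 21.9 CPM in control rapamycin and 39.9, 15.4, 25.7, 22.5 and 27.5 CPM in control vehicle libraries (-0.29 ± 0.19 log2). Olig2 in MIR offspring was at 23.8, 22.8, 16.2, 16.4 and 16.7 CPM after rapamycin and 31.9, 23.99, 23.7, 22.3 and 19.73 CPM after vehicle. Control vehicle 1 was the highest and control vehicle 2 the lowest library for Olig2, and the same held for the next gene. Sox10, a factor needed for myelin gene expression, had 34.9, 42.3, 19.8, 23.8 and 24.8 CPM in control rapamycin and 67.1, 19.6, 36.6, 29.8 and 44.1 CPM in control vehicle libraries (-0.44 ± 0.28 log2). Sox10 in MIR offspring was at 32.0, 23.4, 25.8, 22.6 and 26.7 CPM after rapamycin and 48.4, 23.9, 22.6, 41.6 and 25.5 CPM after vehicle, and for all of these the groups overlapped. The partner factors Olig1 and Nkx2-2 were at -0.20 ± 0.23 and -0.79 ± 0.28 log2 in control offspring and not called by edgeR with all libraries. Myt1 was at -1.45 ± 0.45 log2 in control offspring (quasi-likelihood adjusted p = 0.0503), with 6.44 to 10.2 CPM in control rapamycin libraries and 65.3 CPM in control vehicle 2.

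**Figure D4:**
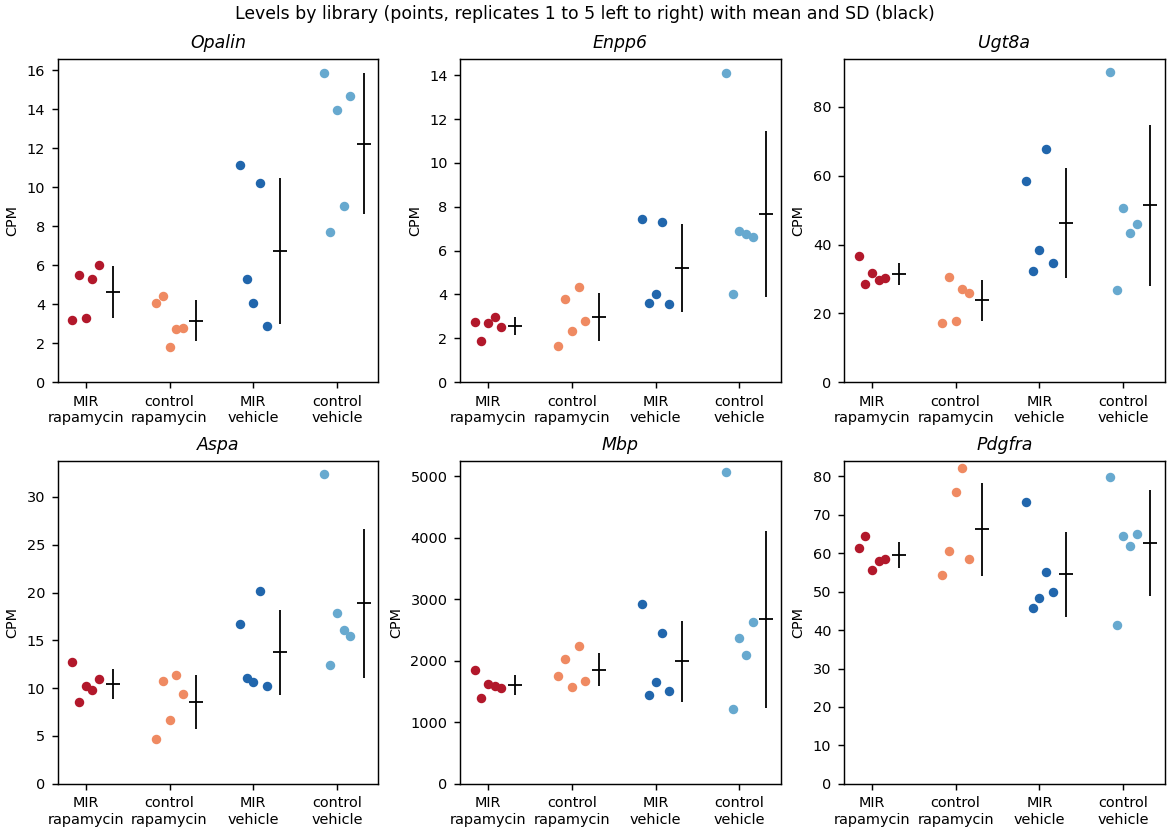
CPM of 6 genes in each library (points, replicate 1 to 5 from left to right, with the group mean and SD in black beside them) for MIR rapamycin, control rapamycin, MIR vehicle and control vehicle. Opalin is at 1.80 to 4.42 CPM in control rapamycin and 7.73 to 15.9 CPM in control vehicle libraries, while Mbp and Pdgfra overlap between all groups.

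Promoters are shown for 4 of the called genes, so that the sequence next to their start can be read beside the fold changes. RefSeq promoter windows (GRCm38.p6, 250 bases before to 50 after the start) were found for 33 of the 42 genes and for 11 of the 13 called ones. The letters CTGGCAC or CTGGTAC, known as the core bound by Myrf, were searched on both strands, as were ACAAAG or ACAATG, known as letters bound by Sox factors such as Sox10. A match of one can share end letters with a match of the other, and each was counted for itself. The Myrf letters were in the windows of 5 of 33 genes (Cnp, Mog, Mag, Opalin and Hapln2), or 15.2%, and in 8.10% of the windows of all 27025 genes. The Sox letters were in 16 of 33, or 48.5%, against 31.7% of all genes. Of the 11 called genes with a window, 3 held the Myrf letters (Cnp, Mog and Opalin) and 5 the Sox letters (Enpp6, Cnp, Ermn, Opalin and Tmem88b). Aspa, Gjc3, Gpr37, Qdpr and Ugt8a held neither. The 4 windows shown all hold a match, so they do not stand for all called genes. Capitals mark these letters on either strand, each sequence is written 5′ to 3′ along its gene, and a match is a description of the letters only.
Opalin, chr19:41077064-41077363, minus strand: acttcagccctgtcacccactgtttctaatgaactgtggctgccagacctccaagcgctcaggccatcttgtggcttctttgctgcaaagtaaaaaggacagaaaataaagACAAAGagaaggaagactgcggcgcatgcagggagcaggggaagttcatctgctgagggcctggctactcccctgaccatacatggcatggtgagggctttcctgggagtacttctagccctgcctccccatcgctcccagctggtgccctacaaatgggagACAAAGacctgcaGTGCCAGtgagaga
Cnp, chr11:100574689-100574988, plus strand: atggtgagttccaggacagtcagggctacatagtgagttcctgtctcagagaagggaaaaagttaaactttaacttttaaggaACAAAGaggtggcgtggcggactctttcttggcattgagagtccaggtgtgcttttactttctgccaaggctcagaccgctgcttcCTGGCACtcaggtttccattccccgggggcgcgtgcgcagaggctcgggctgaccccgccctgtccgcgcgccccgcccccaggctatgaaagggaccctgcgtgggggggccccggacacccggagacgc
Mog, chr17:37023349-37023648, minus strand: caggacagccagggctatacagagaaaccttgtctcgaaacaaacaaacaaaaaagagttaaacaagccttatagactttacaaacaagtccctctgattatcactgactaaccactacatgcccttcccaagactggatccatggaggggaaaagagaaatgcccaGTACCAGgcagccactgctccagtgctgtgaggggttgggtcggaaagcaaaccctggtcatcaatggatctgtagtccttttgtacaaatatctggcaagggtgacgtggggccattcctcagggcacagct
Enpp6, chr8:46986637-46986936, plus strand: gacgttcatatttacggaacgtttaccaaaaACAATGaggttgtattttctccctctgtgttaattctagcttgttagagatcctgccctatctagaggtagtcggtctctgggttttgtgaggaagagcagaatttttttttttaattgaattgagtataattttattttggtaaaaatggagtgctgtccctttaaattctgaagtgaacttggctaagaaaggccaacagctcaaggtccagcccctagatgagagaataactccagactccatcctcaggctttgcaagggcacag

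In MIR offspring no lineage gene passed the test after rapamycin, while most values lay below 0. Of the 41 genes, 0 were called by edgeR's quasi-likelihood test, by DESeq2 or by limma voom, where 0.0173% of all genes were called by the first. At an unadjusted p under 0.05, 4 were lower (Enpp6, Gjb1, Car2 and Ugt8a) and 0 higher, against 4.99% of all genes in either direction. The log2 fold change was below 0 for 35 of 41 genes, with a median of -0.27 over the 41 and 0.00 over all genes tested. Every MIR rapamycin library lay below every MIR vehicle library for 2 genes (Enpp6 and St18), as for 1.44% of all genes. Gjb1 had 6.53, 3.74, 5.96, 4.62 and 5.55 CPM in MIR rapamycin libraries, against 9.84, 7.31, 7.71, 12.9 and 6.402 CPM in MIR vehicle libraries (-0.74 ± 0.28 log2, quasi-likelihood adjusted p = 0.805). Car2 was at 169, 132, 139, 124 and 115 CPM in MIR rapamycin, against 238, 192, 157, 189.9 and 156 CPM in MIR vehicle libraries (-0.46 ± 0.20 log2, quasi-likelihood adjusted p = 0.976). MIR vehicle 1 and 4 were the high libraries of their group, and the median log2 fold change was -0.19 without MIR vehicle 4 and -0.37 without MIR rapamycin 1.

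**Figure D5:**
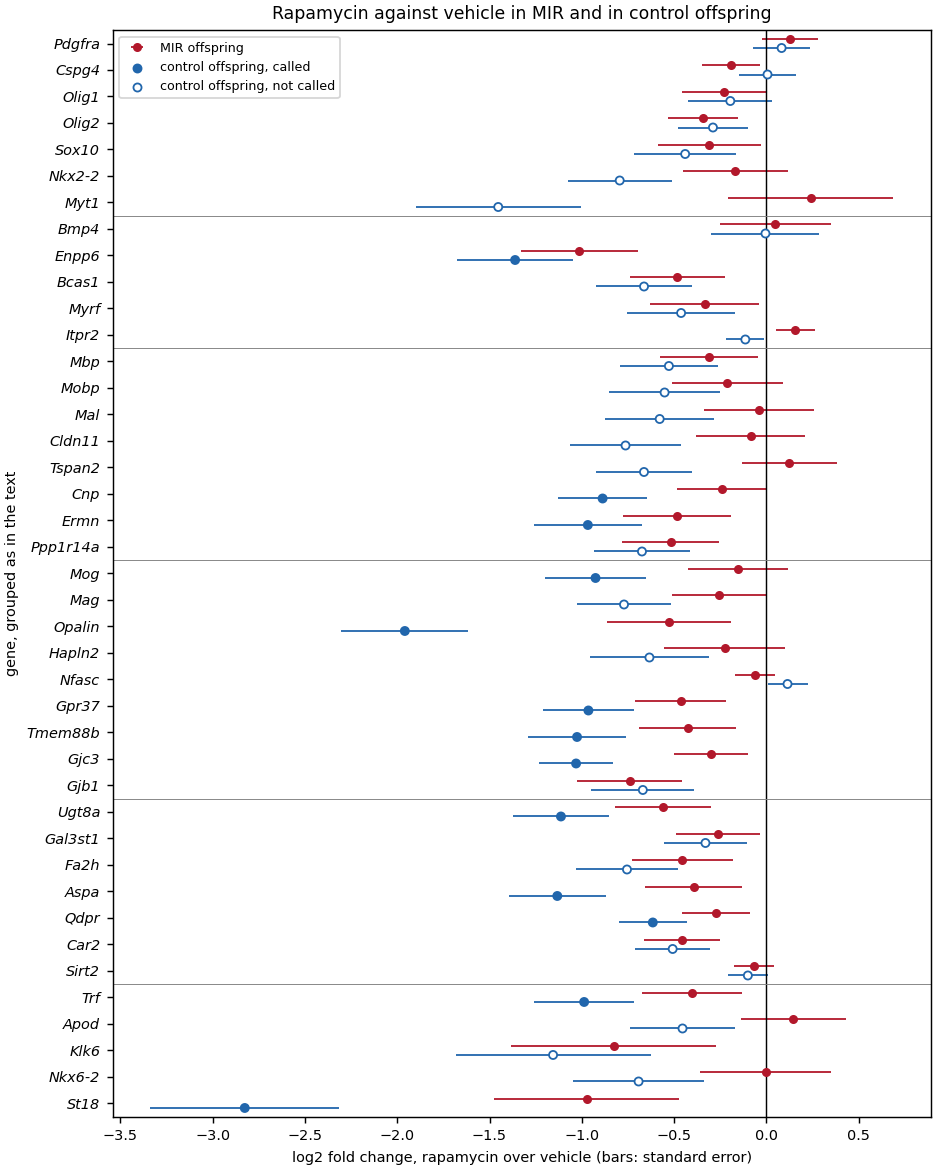
Log2 fold change of rapamycin over vehicle (x axis, bars are standard errors) for the 41 tested genes in MIR offspring (red) and control offspring (blue, filled where called). In control offspring 38 of the 41 values lie below 0 and 13 are called, and in MIR offspring 35 lie below 0 and 0 are called.

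Whether the rapamycin difference itself differed between MIR and control offspring was tested as an interaction, and 0 of 41 genes were called (0% of all genes by edgeR, 0 of 41 also by DESeq2 and limma voom). At an unadjusted p under 0.05 there were 5 genes (Opalin, Myt1, St18, Gjc3 and Tspan2), against 12.7% of all genes, each with a higher log2 fold change in MIR than in control offspring. For Opalin the interaction was 1.43 ± 0.48 log2 (unadjusted p = 0.00699, quasi-likelihood adjusted p = 0.331), which was 1.32 without control vehicle 1 (adjusted p = 0.277). The median over the 41 genes was 0.35 log2, with 0.04 over all genes, and was 0.10 with control vehicle 1 left out, 0.16 with 1 and 2 left out and 0.11 with 1 to 3 left out. A difference in rapamycin effect between MIR and control offspring was therefore not shown for any of these genes.

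Because many of the genes, Mbp included, were highest in control vehicle 1, their levels were also read relative to Mbp in the same library, as CPM per 1000 CPM of Mbp. On this scale control rapamycin libraries lay below control vehicle libraries without overlap for 9 of 40 genes (Enpp6, Bcas1, Ermn, Mog, Opalin, Gpr37, Ugt8a, Aspa and St18) and above for 0, where 0.318% of all genes lay below and 2.6% above. Enpp6 was at 0.942 to 1.93 in control rapamycin, against 2.53 to 3.31 in control vehicle libraries, and at 1.35 to 1.88 in MIR rapamycin, against 2.36 to 2.99 in MIR vehicle libraries. So all 10 rapamycin libraries lay below all 10 vehicle libraries for Enpp6 relative to Mbp, control vehicle 1 and 2 included. For MIR offspring 3 genes lay below (Enpp6, Bcas1 and St18), with 0.0404% of all genes, and 3 above (Pdgfra, Tspan2 and Nkx6-2), with 0.687% of all genes. Pdgfra was at 33.1 to 46.1 in MIR rapamycin, against 22.5 to 33.0 in MIR vehicle libraries, and its control groups overlapped. Opalin had 1.14 to 2.31 in control rapamycin, against 3.13 to 6.36 in control vehicle libraries, with an overlap in MIR offspring. Genes of 1 lineage can share variation with Mbp, so the shares of all genes are not a like comparison, and no test was made on these ratios.

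Prenatal inflammation was read under vehicle as MIR against control offspring. No gene of the 41 was called by edgeR's quasi-likelihood test, where 0.0982% of all genes were called. Limma voom called 0 and DESeq2, which called more of all genes than edgeR, called 2 (Myt1 and St18). Both were highest in control vehicle 2, with Myt1 at 65.3 CPM there and at 17.1 CPM in the next library of the group. At an unadjusted p under 0.05, 10 were lower in MIR vehicle libraries and 0 higher, against 16.3% of all genes in either direction. The log2 fold change was below 0 for 40 of 41 genes, with a median of -0.39 over the 41 and -0.02 over all genes tested. With control vehicle 1 left out the median was -0.07, with 1 and 2 left out it was -0.23, and with 1, 2 and 3 left out it was -0.20. No gene lay lower in MIR than in control libraries without overlap (0 of 41, against 1.39% of all genes). This comparison and the rapamycin comparison in control offspring share the 5 control vehicle libraries.

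The smallest p belonged to St18, with 11.7, 5.71, 6.80, 11.6 and 6.02 CPM in MIR vehicle libraries, against 21.5, 93.2, 10.7, 9.29 and 11.6 CPM in control vehicle libraries (-1.81 ± 0.49 log2, quasi-likelihood adjusted p = 0.0938). Without control vehicle 1 and 2 its value was -0.34 (adjusted p = 0.654), and the difference was called without control vehicle 4 or 5. Opalin was at 11.2, 5.32, 4.08, 10.2 and 2.89 CPM in MIR vehicle libraries, against 15.9, 7.73, 13.9, 9.02 and 14.7 CPM in control vehicle libraries (-0.87 ± 0.33 log2, quasi-likelihood adjusted p = 0.197). MIR vehicle 1 and 4 reached the control range for Opalin, while libraries 2, 3 and 5 lay below it. The only gene above 0 was Cspg4, with 25.2, 18.8, 22.8, 21.2 and 17.8 CPM in MIR vehicle and 25.7, 14.2, 20.6, 19.68 and 22.7 CPM in control vehicle libraries (0.04 ± 0.16 log2, quasi-likelihood adjusted p = 0.936), and its sign turned in several alternatives.

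Under rapamycin, MIR and control offspring were also compared. Of the 41 genes, 0 were called by edgeR (0% of all genes), DESeq2 or limma voom, and 1 had an unadjusted p under 0.05, against 10.1% of all genes. The median log2 fold change was 0.04 over the 41 genes and 0.00 over all genes tested, with 17 of 41 below 0, and 0 of 41 lay lower without overlap, against 1.74% of all genes. The gene with the smallest p was Nfasc, at 311, 319, 295, 323 and 303 CPM in MIR rapamycin and 503, 329, 314, 349.6 and 338 CPM in control rapamycin libraries (-0.24 ± 0.11 log2, quasi-likelihood adjusted p = 0.453), with -0.10 log2 when control rapamycin 1, its high library, was left out. Above 0 it was Apod, at 218, 106, 194, 114 and 148 CPM in MIR rapamycin and 77.0, 112, 146, 91.9 and 98.0 CPM in control rapamycin libraries (0.57 ± 0.28 log2, quasi-likelihood adjusted p = 0.510). MIR rapamycin 1, 3 and 5 lay above every control rapamycin library for Apod, and 2 and 4 lay within their range. Apod was at 215, 79.1, 92.9, 137 and 181 CPM in MIR vehicle and 205, 198, 120.2, 102 and 94.7 CPM in control vehicle libraries. Opalin was at 3.17, 5.49, 3.27, 5.27 and 6.003 CPM in MIR rapamycin and 4.06, 4.42, 1.80, 2.73 and 2.78 CPM in control rapamycin libraries (0.56 ± 0.34 log2, quasi-likelihood adjusted p = 0.603).

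Genes of the lineage outside the 42 were read from the same fit. Of 29 other myelinating genes, 9 fell and 0 rose after rapamycin in control offspring (median log2 fold change -0.57), against the 3.71% of all genes that fell. Among them were Pllp, a proteolipid of the sheath (-1.10 ± 0.20 log2), Evi2a (-1.22 ± 0.26), the protease Adamts4 (-1.18 ± 0.26), Prr5l, a binding partner of mTOR complex 2 (-1.19 ± 0.28), Dock10 (-1.04 ± 0.25), the fatty acid elongase Elovl7 (-0.87 ± 0.23), the semaphorin receptor Plxnb3 (-0.94 ± 0.26) and the carnosine synthase Carns1 (-0.85 ± 0.25), with quasi-likelihood adjusted p between 0.00728 and 0.0457. Without control vehicle 1 there were 5 (Pllp, Evi2a, Adamts4, Prr5l and Dock10), and without control vehicle 1, 2 and 3 there was 1 (Pllp). Of 15 other precursor genes, 1 fell, the matrix protein Matn4 (-0.79 ± 0.16 log2, quasi-likelihood adjusted p = 0.00978), with a median of -0.29. In the other 4 comparisons 0 of these 44 genes were called by edgeR's quasi-likelihood test, and in MIR offspring 9 were lower and 0 higher after rapamycin at an unadjusted p under 0.05, against 4.99% of all genes in either direction. Under vehicle, 6 of the 15 and 10 of the 29 were lower in MIR than in control libraries and 0 higher at an unadjusted p under 0.05, against 16.3% of all genes.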

How the data were processed

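Sensory-motor cortex RNA of 20 mice was sequenced as paired ends from a stranded mRNA kit. The authors aligned reads with STAR 2.4.0 to mm10 and counted them with HTSeq 0.6.1 (the submitters' processing notes and the methods), and deposited a table of raw counts per gene. They left out libraries that failed their quality control. The strand setting of the counting was not found in the labels or methods. The 20 value columns were matched to samples by their names, and 0 value columns stayed unmapped. Symbols listed more than once (126) were kept as separate genes.

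Counts were scaled by TMM and filtered by filterByExpr (minimum count 10, minimum total count 15), which kept 17313 of the 31851 genes with at least 1 count. One quasi-likelihood model in edgeR 4.0.16 (R 4.3.3) with 1 mean per group over all 20 libraries gave 5 comparisons. MIR was set against control for each injection, rapamycin against vehicle for each kind of offspring, and both rapamycin effects against each other. P-values were adjusted over all genes tested by Benjamini-Hochberg, and calls needed both an absolute log2 fold change over 0.5 and an adjusted p under 0.05. The common biological coefficient of variation was 21.9%. CPM values are TMM-scaled, and log2 CPM values used a prior count of 2. The test was checked on simulated counts. The simulation held no libraries with signal of other brain regions, so it does not speak to their part in the calls. Within groups, the lowest chi-square per degree of freedom over 40 pairs of libraries was 5.14, so no library was counted as a repeat of another.

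Library values are given for genes called in any comparison, for the gene with the smallest p in each direction of each pairwise comparison, and for 13 stage markers from Pdgfra to Klk6. Of the other lineage lists, those called are named, except 1 that is not reported here. Where Gjb1 and Car2 have library values, they were chosen after their values were seen. The genes, lists and tests were chosen with earlier results of these data known.

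Alternatives were DESeq2 1.42.0, limma 3.58.1 voom with sample weights, RLE size factors, no filter on low counts, only the groups compared, the replicate number as a block, the criterion of the study's table (absolute log2 fold change over 1, p under 0.05, adjusted p under 0.1), leaving out each library, and leaving out control vehicle 1 to 3. Leaving out control vehicle 1 and 2 together was added after the data were seen. Gene positions are from GENCODE M21 (GRCm38) and promoters from RefSeq (GRCm38.p6).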

Additional observations from a re-analysis of the deposited data

Results flagged for a closer look

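In groups of 5 libraries, a value was singled out where its gap to the nearest other library was over 0.71 of the group's range (Dixon's 95% critical value). This held for 19 of the 164 groups of the 41 tested genes. A rate of about 1 in 20 groups holds for values with a normal spread, and CPM was not transformed here. Control vehicle 1 was known beforehand as the library with the highest level of these genes. The share over all genes was not computed, so the 19 are a description only. Genes of the lineage can vary together, so the flagged groups cannot be counted as separate events. In control vehicle 1, the library with striatal markers, 12 genes stood far above the other 4 libraries: Cnp at 507 CPM, Mag at 266 CPM, Qdpr at 246 CPM, Myrf at 164 CPM, Gjc3 at 84.4 CPM, Trf at 67.5 CPM, Fa2h at 54.2 CPM, Aspa at 32.4 CPM, Nkx6-2 at 29.6 CPM, Gjb1 at 22.2 CPM, Enpp6 at 14.1 CPM and Klk6 at 9.67 CPM. In control vehicle 2, the library with cerebellar markers, St18 was at 93.2 CPM, with 21.5 CPM in the next library, and Myt1 at 65.3 CPM, with 17.1 CPM in the next. MIR rapamycin 1 was the highest of its group for Mal at 159.9 CPM, Gjc3 at 36.5 CPM and Cspg4 at 21.01 CPM. Hapln2 was at 25.5 CPM in MIR vehicle 4, and Nfasc at 503 CPM in control rapamycin 1. What sets these libraries apart was not tested.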

How the results depend on the processing

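The median log2 fold change of the 41 genes kept its sign in every comparison and alternative except MIR against control under rapamycin, where it was -0.04 without MIR rapamycin 1 and -0.03 without control rapamycin 3. In control offspring, 13 genes were called after rapamycin. There were 17 by DESeq2, 12 by limma voom, 8 by the criterion of the study's table, 1 with only the groups compared, 8 without control vehicle 1 and 2 together and 1 with control vehicle 1 to 3 left out. Leaving out 1 library gave 6 to 17, with Ninj2 among those called in some of these fits. Over all genes this comparison gave 906 calls, with 588 by limma voom, 13 with only the groups compared, 276 with control vehicle 1 and 2 left out, 36 with control vehicle 1 to 3 left out, and 449 to 1358 leaving out 1 library. The all-gene counts by DESeq2 and by the criterion of the study's table are not given here. The 17 and 8 genes called by them are thus not set against a share of all genes. MIR against control under vehicle gave 0 calls among the 41, and 2 by DESeq2 and by the criterion of the study's table, with 0 to 2 leaving out 1 library. Over all genes it gave 17, with 391 by DESeq2, 158 by the criterion of the study's table, 63 with no filter on low counts, 0 with only the groups compared, 1 with control vehicle 1 and 2 left out, 0 with control vehicle 1 to 3 left out, and 0 to 226 leaving out 1 library. Under rapamycin MIR against control gave 0 over all genes, with 88 by DESeq2, 119 by limma voom, 13 with only the groups compared, 71 with control vehicle 1 and 2 left out, 31 with control vehicle 1 to 3 left out, and 0 to 35 leaving out 1 library. Rapamycin in MIR offspring gave 3, with 36 by DESeq2, 59 by limma voom, 6 by the criterion of the study's table, 31 with only the groups compared, 24 with control vehicle 1 and 2 left out, 22 with control vehicle 1 to 3 left out, and 2 to 16 leaving out 1 library. For the interaction 0 genes became 63 by DESeq2 and 0 to 1 leaving out 1 library. The causes were not tested. Cspg4 in MIR against control under vehicle, at 0.04, turned to -0.014 by limma voom, to -0.0055 with control vehicle 1 to 3 left out and to -0.03 without MIR vehicle 1, with a range of -0.073 to 0.13 leaving out 1 library. Nfasc in control offspring, at 0.11, was at -0.025 without control rapamycin 1, with a range of -0.025 to 0.17 leaving out 1 library.

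Replicate numbers did not pair the libraries: the correlation of same-numbered deviations was -0.145 to 0.129, at most 1 of 5 pairs was over 0.1, and at most 2 of 5 libraries correlated best with their own number. With the replicate block, 10 genes of the 41 and 425 of all genes were called in control offspring after rapamycin, 5 of all genes in MIR offspring, and 0 in MIR against control under vehicle. Depth limits Ninj2 and Klk6 most.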

Other observations

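Ninj2 was too low to be tested in the fit with all 20 libraries. It was tested and called lower after rapamycin in control offspring in some fits that left out 1 library. These were the fits without control rapamycin 1, control vehicle 2, MIR rapamycin 2 or 4, or MIR vehicle 1, 4 or 5. Its raw counts, not scaled for depth, are given here. Ninj2 had 3 to 7 counts in control rapamycin libraries, against 9 to 22 counts in control vehicle libraries, and 2 to 8 counts in MIR rapamycin libraries, against 3 to 8 counts in MIR vehicle libraries. By CPM, 2.8% of all genes tested lay lower without overlap in control rapamycin than in control vehicle libraries.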
